A study of Mus musculus with 17 samples.

Results

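The genes described here are Pdgfrb, Sdc1, Adam19, Afdn, Uaca, Sertad4, Spsb4, Fbp1 and Wdr25, 9 of the 18194 genes named on the arrays. They were selected on their array signals, for strong rises in lymphomas of Tcf1-/- mice over the thymus of Tcf1+/- mice, so that rise is a description below and not a test. The same lymphoma arrays and the same control arrays enter the other comparisons. The genes were grouped as gained in both Tcf1-/- groups, with the tumor-free values already known, so their tests against tumor-free thymi are no independent evidence of a direction. All 9 genes were among the 13756 genes that passed the filter on low signals. The genes are carried by 16 probe sets, and each gene is given by the probe set with its highest mean over the 17 arrays.

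The mice were C57Bl/6, with 1 array for each. The labels give homogenized thymus tissue as the source of RNA and the paper's methods name thymocytes, with no sorting of cells described for the arrays in either, so how much stroma the samples held is not known from these sources. The 5 control mice were Tcf1+/- (wt/ΔVII), the 4 tumor-free mice were Tcf1-/- (ΔVII/ΔVII), and the 8 mice with a thymic lymphoma were Tcf1-/- (ΔVII/ΔVII) as well. The deletion is carried in the germline, so every cell of the thymus lacks the factor and not only the thymocytes, and the controls carry 1 deleted allele too. The paper describes the tumor-free mice as similar in age to those with tumors, and no age of a single mouse was used here. Values are log2 signals after robust multichip average (RMA), so 1 unit is a doubling.

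Tcf1 is a transcription factor with an HMG box that binds DNA at TCF/LEF sites, acts with β-catenin downstream of Wnt signals and is needed for the early steps of T-cell development. Where T-cell development fails, the thymus keeps a larger share of stromal, myeloid and B-lineage cells, so that in unsorted tissue a transcript can rise because more cells of another type are present. Some of the 9 genes are better known outside the T lineage: Pdgfrb in pericytes and fibroblasts, Sdc1 in epithelia and plasma cells, and Fbp1 in liver and kidney.

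The windows before the start sites are shown because the missing factor recognizes DNA. RefSeq windows (GRCm38.p6) were at hand for 7 of the 9 genes, not for Pdgfrb and Wdr25, and comprised 10 windows of 250 bases. Each window was read on both strands for 3 spellings of the TCF/LEF site. CTTTGAA lay in 4.46% of all 32851 windows, CTTTGAT in 3.21% and CTTTGTT in 5.03%, and at least 1 of these lay in 12%. In the 10 windows of these 7 genes there were 0 such matches. TGGGAA, the core read by RBPJ, the DNA-binding partner of Notch, lay in both windows of Sertad4 and in 21.6% of all windows. The E-box CAGCTG lay 4 times in the window of an inner start of Adam19 and in 13% of all windows. Absence of these letters says only that they are not in these windows. Sertad4 and Adam19 are shown for their matched letters, in capitals, and Uaca as a gene without a match that was called in both tests below. The windows are chr1:192855753-192856002 (minus strand) for Sertad4, chr11:46127654-46127903 (plus strand) for Adam19 and chr9:60794192-60794441 (plus strand) for Uaca.
Sertad4: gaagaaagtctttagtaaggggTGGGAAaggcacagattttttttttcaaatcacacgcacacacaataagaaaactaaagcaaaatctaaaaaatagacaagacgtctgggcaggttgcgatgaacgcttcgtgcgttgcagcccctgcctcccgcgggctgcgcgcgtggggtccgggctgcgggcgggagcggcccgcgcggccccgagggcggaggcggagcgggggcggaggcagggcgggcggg
Adam19: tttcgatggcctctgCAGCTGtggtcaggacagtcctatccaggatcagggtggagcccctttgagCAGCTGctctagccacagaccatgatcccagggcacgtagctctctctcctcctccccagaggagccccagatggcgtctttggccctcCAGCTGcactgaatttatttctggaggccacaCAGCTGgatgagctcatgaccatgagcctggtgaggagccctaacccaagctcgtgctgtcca
Uaca: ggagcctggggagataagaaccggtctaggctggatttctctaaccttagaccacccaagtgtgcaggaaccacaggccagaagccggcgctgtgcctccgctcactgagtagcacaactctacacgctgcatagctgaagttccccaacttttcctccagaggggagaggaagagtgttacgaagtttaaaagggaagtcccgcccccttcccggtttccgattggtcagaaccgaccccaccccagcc

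Before the values, 3 features of the arrays bear on all of them. The arrays of control mice 1 and 2 and of lymphomas 1 and 2 stood apart, with the 40th percentile of all probe sets at 4.92 to 4.98 and at 4.69 to 4.82 on the other 13 arrays. Without these 4 arrays, the same 8 of the 9 genes were called in tumor-free Tcf1-/- thymi over controls. In lymphomas over tumor-free thymi 3 were called, the count found with them, but not the same genes. Sertad4 was called (limma adjusted p = 0.0346) and Wdr25 was not (limma adjusted p = 0.0511). Mean signal of Y-linked genes was 7.73 to 8.22 in the 4 tumor-free mice, 6.93 to 8.64 in 4 controls and 3.58 in control 2. It was 7.97 and 8.11 in lymphomas 4 and 6 and at most 3.69 in the other 6 lymphomas, so the sexes were not balanced between the groups. RMA gives no detection call, so a low signal in controls cannot be read as absence of a transcript. In bulk tissue, fewer cells of a type and less RNA per cell cannot be told apart.

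All 9 genes were higher in every lymphoma than in every control, the pattern they were selected for. Differences between the group means ran from 3.35 for Adam19 to 5.80 for Pdgfrb, with a median of 4.91. As background, 8.49% of tested genes were called higher and 4.21% lower in lymphomas than in controls, and 4.78% lay in every lymphoma above every control. In tumor-free Tcf1-/- thymi, 8 of the 9 genes rose over controls (limma, adjusted p under 0.05), and 0 fell. The same call was made for 10.1% of tested genes in the upward and 4.7% in the downward direction. For the same 8 genes all 4 tumor-free thymi lay above all 5 controls, which held for 11.2% of tested genes. The exception was Spsb4. By the exact two-sided permutation test of the difference of means these 8 genes had p = 0.00794, the smallest that 4 against 5 mice allow, and Spsb4 had p = 0.0317. In lymphomas against tumor-free thymi, 3 of the 9 genes rose (Uaca, Wdr25 and Spsb4) and 0 fell, with 6.34% of tested genes called higher and 8.35% lower. This count was 0 without tumor-free mouse 2, 1 without tumor-free mouse 1 and 5 without lymphoma 4. With Y-linked signal in the model 0 of the 9 were called, a fit that rests on lymphomas 4 and 6. These 2 measured 7.97 and 11.75 for Uaca, 8.49 and 11.26 for Wdr25 and 7.48 and 8.47 for Spsb4, so lymphoma 6 and not lymphoma 4 lay above all tumor-free thymi.

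**Figure D1:**
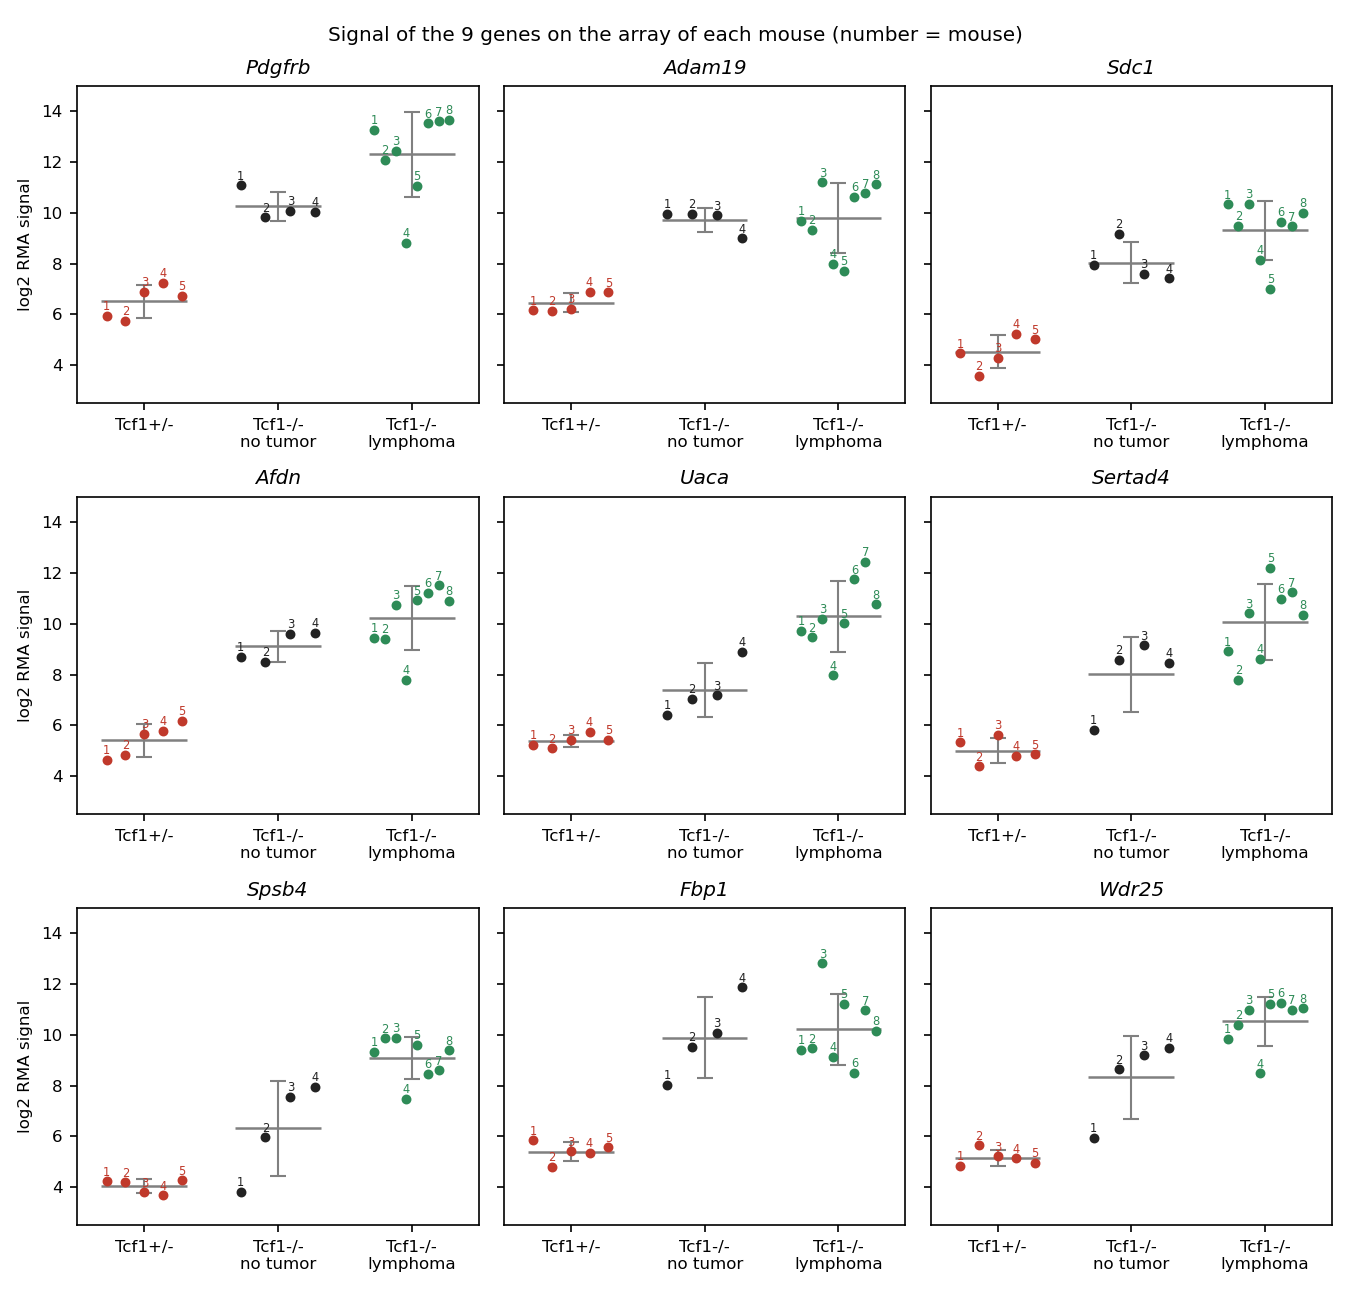
Log2 RMA signal (vertical axis) of each gene on the array of each mouse, by group (horizontal axis); points are mice with their numbers, and grey lines are the group mean ± SD (n = 5, 4 and 8). All lymphomas lie above all controls for the 9 genes, and tumor-free mouse 1 lies among the controls for Spsb4 at 3.82.

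Pdgfrb, a receptor tyrosine kinase for the platelet-derived growth factors PDGF-B and PDGF-D, had signals of 5.94, 5.74, 6.88, 7.24 and 6.74 in the controls and 11.08, 9.83, 10.08 and 10.03 in the tumor-free Tcf1-/- thymi. In lymphomas it ran from 8.81 (mouse 4) through a median of 12.86 to 13.66 (mouse 8). Thus on this probe set no Tcf1-/- thymus came near the controls, and 1 lymphoma lay below all tumor-free thymi while 6 lay above all of them. The tumor-free mean was 3.75 ± 0.36 (SE) above the control mean, 13.4-fold (limma adjusted p = 0.000158). Lymphomas were 2.05 higher than tumor-free thymi (95% interval 0.37 to 3.74, limma adjusted p = 0.0956), which did not pass the test. It passed without lymphoma 4, at 2.55 (limma adjusted p = 0.00418), and in a joint fit of the 17 arrays (limma adjusted p = 0.0492). The other probe set gave smaller differences of the same order, 1.55 for tumor-free thymi and 3.51 for lymphomas over controls. On that probe set lymphoma 4 measured 6.40, near the highest control at 6.14.

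Sdc1 encodes syndecan-1, a cell-surface proteoglycan that carries heparan sulfate chains. Control signals were 4.46, 3.57, 4.29, 5.23 and 5.01, and tumor-free signals 7.94, 9.18, 7.59 and 7.41. Lymphomas ran from 7.0 (mouse 5) through a median of 9.57 to 10.34 (mice 1 and 3 alike). Lymphoma 5 therefore lay below every tumor-free thymus, and 6 lymphomas lay above all of them. Tumor-free thymi were 3.52 ± 0.41 (SE) above controls, 11.5-fold (limma adjusted p = 0.000473). The difference of lymphomas from tumor-free thymi was 1.27 (95% interval 0.02 to 2.53, limma adjusted p = 0.163), and without lymphoma 5 it was 1.60 and passed (limma adjusted p = 0.0273). Sdc1 has 4 probe sets, and they did not move alike. The lymphoma minus control difference was 3.80, 1.87 and 0.59 on the others, the last with 3 of 8 lymphomas above all controls. In the same order the tumor-free minus control difference was 2.41, 1.11 and 0.45, the last with 1 of 4 tumor-free thymi above all controls.

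Adam19, a membrane-anchored metalloprotease that sheds growth factor precursors such as neuregulins, had signals of 6.16, 6.15, 6.22, 6.88 and 6.86 in controls and 9.95, 9.97, 9.90 and 9.0 in tumor-free thymi. Lymphomas ran from 7.70 (mouse 5) through a median of 10.15 to 11.21 (mouse 3). Lymphomas lay on both sides of the tumor-free thymi, 2 below and 4 above all of them. The tumor-free difference was 3.25 ± 0.26 (SE), 9.52-fold (limma adjusted p = 8.22e-05). Lymphomas differed from tumor-free thymi by 0.10 (95% interval -1.29 to 1.48, limma adjusted p = 0.94), an interval that leaves room for a change of more than a doubling either way. On the other Adam19 probe set the tumor-free mean was the higher of the pair, at 7.01 against 6.17 in lymphomas and 4.42 in controls.

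Afdn encodes afadin, which ties nectins at cell junctions to the actin cytoskeleton and is known in human leukemia as a fusion partner of KMT2A. It measured 4.64, 4.84, 5.66, 5.77 and 6.17 in controls and 8.70, 8.5, 9.60 and 9.65 in tumor-free thymi. In lymphomas it ran from 7.78 (mouse 4) through a median of 10.82 to 11.52 (mouse 7). The gap between controls and Tcf1-/- thymi was wide, and lymphoma 4 lay below the tumor-free range. Tumor-free thymi were 3.70 ± 0.37 (SE) above controls, 13-fold (limma adjusted p = 0.000198). Lymphomas were 1.13 higher than tumor-free thymi (95% interval -0.17 to 2.43, limma adjusted p = 0.232), and without lymphoma 4 the difference was 1.48 and passed (limma adjusted p = 0.0356). The second Afdn probe set showed none of this, with means of 4.56, 4.44 and 4.64 in controls, tumor-free thymi and lymphomas, and lay above the 40th percentile on 2 of 17 arrays.

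Uaca, a coiled-coil protein linked to the apoptosome through Apaf1, rose in both comparisons. Signals were 5.24, 5.10, 5.42, 5.73 and 5.44 in controls and 6.42, 7.05, 7.18 and 8.89 in tumor-free thymi. Lymphomas ran from 7.97 (mouse 4) through a median of 10.11 to 12.44 (mouse 7). Lymphoma 4 was the 1 lymphoma under the highest tumor-free thymus, mouse 4 of that group. The tumor-free rise of 2.0 ± 0.41 (SE), or 4.00-fold, passed the test (limma adjusted p = 0.00864), and lymphomas were a further 2.91 ± 0.70 higher (limma adjusted p = 0.0152). The second call was lost without tumor-free mouse 1 (limma adjusted p = 0.0696) or mouse 2 (limma adjusted p = 0.0503). The tumor-free call was lost when all 17 arrays entered 1 fit (limma adjusted p = 0.0675).

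Sertad4 belongs to the SERTA domain family, whose better known members act on E2F-dependent transcription and the cell cycle. Controls measured 5.33, 4.39, 5.61, 4.81 and 4.86 and tumor-free thymi 5.82, 8.58, 9.16 and 8.47. Lymphomas ran from 7.79 (mouse 2) through a median of 10.39 to 12.21 (mouse 5). Tumor-free mouse 1 lay just above the highest control and far below its 3 group mates. The tumor-free rise was 3.01 ± 0.59 (SE), 8.04-fold (limma adjusted p = 0.00646), and 3.74 without tumor-free mouse 1. Lymphomas were 2.06 higher than tumor-free thymi (95% interval 0.32 to 3.80, limma adjusted p = 0.105). With those 4 outlying arrays left out, the difference was 2.63 and passed the test (limma adjusted p = 0.0346), and without tumor-free mouse 1 it was 1.33 (limma adjusted p = 0.373).

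Spsb4 encodes a SPRY domain and SOCS box protein that brings targets to a ubiquitin ligase. It was low in all controls, at 4.22, 4.18, 3.79, 3.68 and 4.26, none of them above the 40th percentile of its array. Tumor-free thymi measured 3.82, 5.96, 7.55 and 7.95, and lymphomas ran from 7.48 (mouse 4) through a median of 9.36 to 9.89 (mouse 3). Tumor-free mouse 1 was within the control range and the other 3 were above it. The tumor-free difference was 2.30 ± 0.70 (SE) and missed the threshold (95% interval 0.75 to 3.84, limma adjusted p = 0.0516). It passed without tumor-free mouse 1, at a difference of 3.13. Lymphomas were 2.76 above tumor-free thymi (limma adjusted p = 0.0159), 6.77-fold, with 7 of 8 above every tumor-free thymus, and the call was lost without tumor-free mouse 2 (limma adjusted p = 0.053). Without tumor-free mouse 1 this difference was 1.93. The second probe set gave 1.33 for tumor-free thymi and 3.18 for lymphomas over controls.

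Fbp1, fructose-1,6-bisphosphatase, catalyzes a rate-limiting step of gluconeogenesis. Controls measured 5.84, 4.80, 5.41, 5.34 and 5.57 and tumor-free thymi 8.03, 9.53, 10.09 and 11.88. Lymphomas ran from 8.51 (mouse 6) through a median of 9.81 to 12.83 (mouse 3). The tumor-free thymi spread over almost the same range as the lymphomas, and only lymphoma 3 exceeded tumor-free mouse 4. The tumor-free rise of 4.49 ± 0.61 (SE), or 22.5-fold, passed the test (limma adjusted p = 0.000999), and was 5.11 without tumor-free mouse 1 and 3.83 without mouse 4. Lymphomas differed from tumor-free thymi by 0.33 (95% interval -1.38 to 2.04, limma adjusted p = 0.822). This difference was -0.29 without tumor-free mouse 1 and 0.99 without mouse 4.

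Wdr25, a WD repeat protein of little known function, measured 4.83, 5.64, 5.2, 5.13 and 4.95 in controls and 5.94, 8.65, 9.19 and 9.5 in tumor-free thymi. Lymphomas ran from 8.49 (mouse 4) through a median of 10.98 to 11.26 (mouse 6). Apart from lymphoma 4, all lymphomas lay above every tumor-free thymus. The tumor-free rise was 3.17 ± 0.61 (SE), 8.98-fold (limma adjusted p = 0.00632), and 3.96 without tumor-free mouse 1. Lymphomas were a further 2.21 higher (95% interval 0.81 to 3.61, limma adjusted p = 0.0367), a call that was lost in 8 of the 12 fits that left out 1 mouse and on leaving out the 4 outlying arrays (limma adjusted p = 0.0511). Without tumor-free mouse 1 it was 1.42 (limma adjusted p = 0.132).

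**Figure D2:**
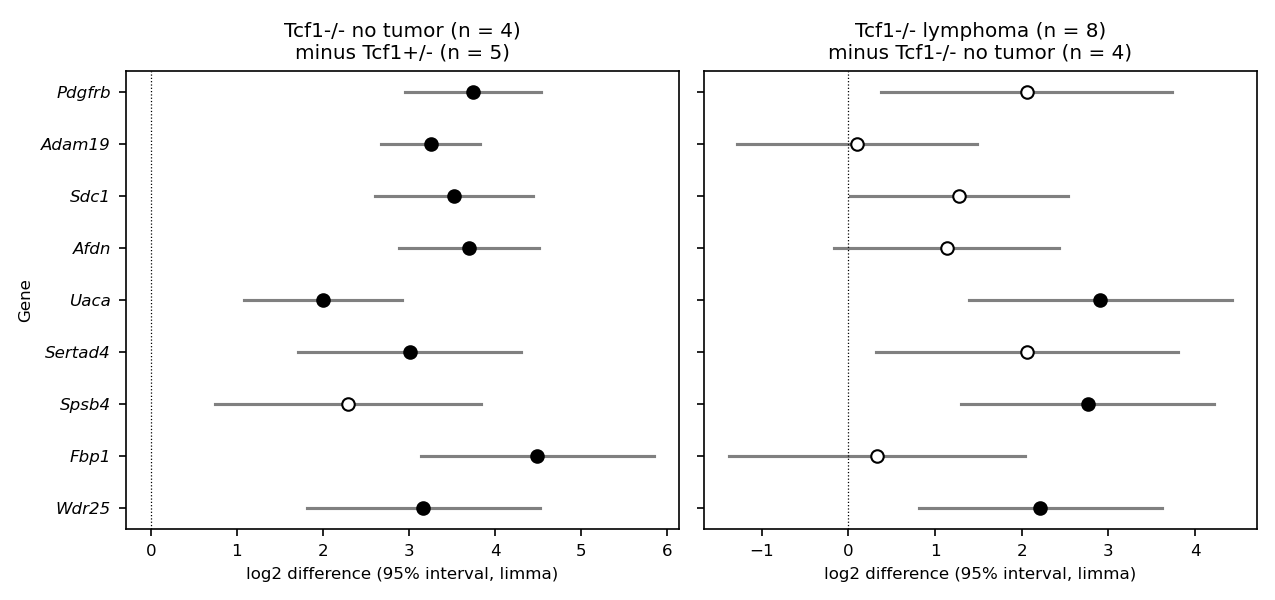
Log2 differences (horizontal axis) of each gene (vertical axis) between tumor-free Tcf1-/- thymi and controls (left) and between lymphomas and tumor-free thymi (right), with 95% intervals from limma; filled points were called at an adjusted p under 0.05. On the left 8 of 9 points are filled, and on the right the 3 of Uaca, Spsb4 and Wdr25.

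The tumor-free minus control difference, as a share of the lymphoma minus control difference, ranged widely between the genes. On the probe sets used it was 97.0% for Adam19, 93.2% for Fbp1, 76.6% for Afdn and 73.4% for Sdc1. It was 64.6% for Pdgfrb, 59.3% for Sertad4, 58.9% for Wdr25 and 40.8% for Uaca. No share is given for Spsb4, whose controls all lay under the 40th percentile. Of the 5 controls, 2 lay above it for Sdc1, 3 for Afdn and 4 each for Sertad4, Fbp1 and Wdr25, so these shares rest in part on low control signals. The shares depend on the probe set, since on the second Adam19 probe set the tumor-free difference exceeded that of lymphomas (2.59 against 1.76) and on the second of Pdgfrb it was 1.55 against 3.51. They set log2 differences of separate mice with shared controls side by side and carry no test. The cells behind the signal may differ between these groups, which was not tested.

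The mice of a group did not rank alike for all genes. Tumor-free mouse 1 had the lowest signal of its group for Uaca, Sertad4, Fbp1, Wdr25 and Spsb4 and the highest for Pdgfrb. For Uaca, Fbp1, Wdr25 and Spsb4 the 4 tumor-free thymi stood in the order 1, 2, 3, 4, with mouse 4 highest. Lymphoma 4 was the lowest of 8 for Pdgfrb, Uaca, Afdn, Wdr25 and Spsb4, and its mean over the 9 genes was 2.95 above the control mean, against 4.39 to 5.75 in the other 7. Lymphoma 5 combined the highest Sertad4 of all mice with the lowest Sdc1 and Adam19 among lymphomas. Lymphomas 6 to 8 had the 3 highest Pdgfrb signals. They were also the 3 with high Axin2, a Wnt target gene, at 10.27, 10.17 and 9.97 against 6.79 to 7.87 in the other 5. Lymphoma 1, with Axin2 at 7.57, had Pdgfrb at 13.28, near the 13.53 of lymphoma 6. Uaca was also highest in lymphomas 6 to 8. Spsb4 was highest in lymphoma 3 (Axin2 7.73) and Sertad4 in lymphoma 5 (Axin2 6.79). A relation of the 9 genes to Axin2 was not tested.

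**Figure D3:**
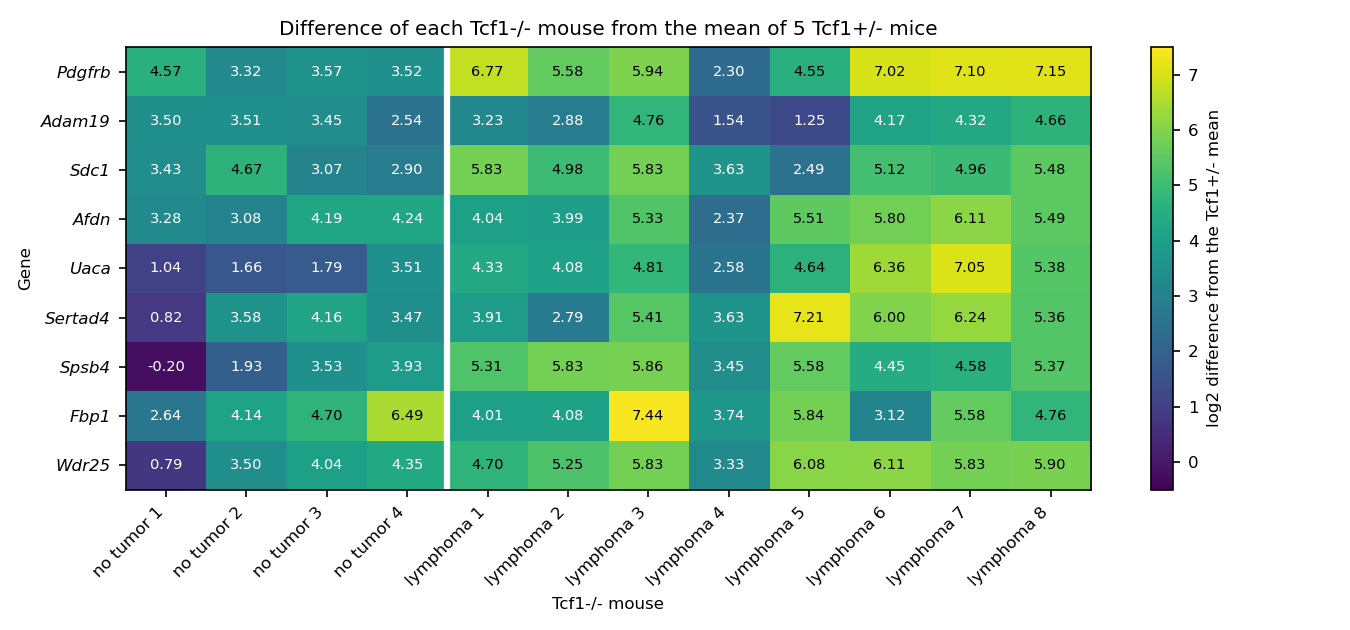
Log2 difference of each Tcf1-/- mouse (horizontal axis) from the mean of the 5 controls for each gene (vertical axis), as colour and number. The single value below 0 is Spsb4 in tumor-free mouse 1 at -0.20, and the column of lymphoma 4 holds no value above 3.74.

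**Figure D4:**
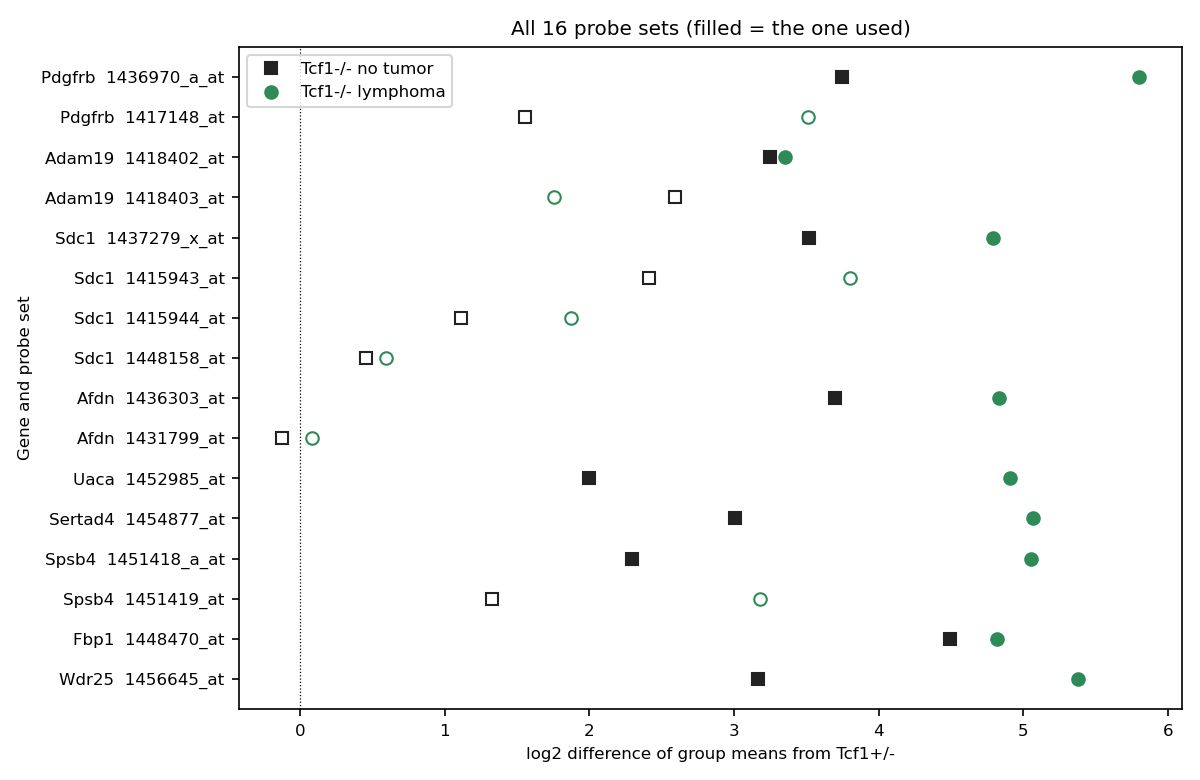
Log2 difference of the group means from controls (horizontal axis) for each of the 16 probe sets (vertical axis), squares for tumor-free thymi and circles for lymphomas, filled for the probe set used. Adam19 is the only gene whose second probe set has the tumor-free square (2.59) to the right of the lymphoma circle (1.76), and the second Afdn probe set lies near 0.

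The label of an ectopic gene was set against the cells that an unsorted thymus sample can hold. Of the fibroblast markers, 13 were tested, and Dcn (2.75), Col3a1 (2.45), Col1a2 (1.14) and Col6a1 (0.64) rose in tumor-free thymi against controls (limma adjusted p under 0.05) while 0 fell. In lymphomas Fbln1, an extracellular matrix protein, rose over controls (2.56, limma adjusted p = 0.000127) and over tumor-free thymi (2.07), as the 1 gene of the list called in each, and 0 fell. The mean level of the list was 5.23 to 5.52 in controls, 5.91 to 6.27 in tumor-free thymi and 5.47 to 6.96 in lymphomas. Pdgfra, a defining fibroblast gene chosen here after its values were seen, lay at 3.74 to 5.03 on all 17 arrays and did not pass the filter. In lymphoma 1, where Pdgfrb was 13.28, Col3a1 was 5.91, above the highest control at 5.76, and Dcn 5.91, below the highest control at 6.47. In lymphoma 7, where Pdgfrb was 13.61, they were 9.09 and 9.57. The part of fibroblasts in the Pdgfrb signal was not tested.

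Of 10 pericyte and smooth muscle markers tested, Kcnj8 (1.61), Notch3 (1.30) and Anpep (0.99) rose in tumor-free thymi against controls and 0 fell. Notch3 also rose in lymphomas over controls (1.87, limma adjusted p = 0.00209), as the 1 gene of the list called there. Rgs5, which marks pericytes, lay at 3.84 to 5.06 in controls, 4.11 to 5.48 in tumor-free thymi and 4.09 to 6.21 in lymphomas. Among the lymphomas with the highest Pdgfrb, Rgs5 was 4.09 and 4.15 in mice 1 and 8 (Pdgfrb 13.28 and 13.66). It was 6.21 and 6.135, above all controls, in mice 6 and 7 (Pdgfrb 13.53 and 13.61). The mean level of the list was 5.29 to 5.56 in controls, 5.71 to 5.90 in tumor-free thymi and 5.72 to 5.92 in lymphomas. The list medians were 0.19 in tumor-free thymi and 0.37 in lymphomas against controls, and the fibroblast medians 0.27 and 0.63. The part of pericytes in the Pdgfrb signal was not tested.

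Sdc1 is a standard surface marker of plasma cells. Of 8 plasma cell markers tested, Mzb1 (2.40), Irf4 (1.89) and Prdm1 (1.11) rose in tumor-free thymi against controls, and 0 fell. In lymphomas against tumor-free thymi, 4 of 8 fell, among them Jchain (-2.92), the immunoglobulin joining chain, and Mzb1 (-2.39), and 0 rose. Their mean level was 7.16 to 7.83 in controls, 8.06 to 8.47 in tumor-free thymi and 6.47 to 7.87 in lymphomas. In lymphoma 1, Jchain was 7.60, below every control, while Sdc1 was 10.34. In lymphoma 8, Jchain was 11.35, within the control range, and Mzb1 was 10.05, above the highest control at 8.835, while Sdc1 was 9.99. Of 15 thymic epithelial markers, Cd83 (3.17) and Krt18 (1.70) rose and Cldn4 (-1.78) fell in tumor-free thymi against controls, where Sdc1 rose too. The median of this list was 0.15 there. Epcam, Krt5, Krt14 and Foxn1 were not called, with differences of -0.07 to 0.235. Prss16 (1.455), Krt8 (1.43), Ccl25 (1.41) and Psmb11 (1.24) had higher means in tumor-free thymi and were not called either. In lymphomas against tumor-free thymi 0 rose and 6 fell, led by Cd83 (-3.79) and Krt18 (-3.45), and the part of plasma and epithelial cells in the Sdc1 signal was not tested.

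Tumor-free Tcf1-/- thymi carried a large signal of other blood cells. Of the macrophage and monocyte markers 14 of 14 rose over controls, among them Lyz2 (3.06), a lysozyme, and Marco (2.99), a scavenger receptor, and their mean level was 9.23 to 11.19 against 7.10 to 8.22 in controls. Of 9 B-cell markers 8 rose, led by Ms4a1 (4.44) and Fcer2a (4.41), and their mean level was 8.95 to 10.80 against 6.23 to 6.71. Dendritic cell markers rose in 7 of 9, NK-cell markers in 5 of 6 and gamma-delta T-cell markers in 4 of 6. The median differences were 2.56 for macrophage, 4.02 for B-cell, 1.43 for dendritic cell and 2.09 for gamma-delta T-cell markers. In lymphomas the macrophage mean was 6.09 to 8.64 and the B-cell mean 5.83 to 7.13, overlapping the controls. Of these markers 12 of 14 and 8 of 9 were lower than in tumor-free thymi. The gamma-delta mean was 6.89 to 8.47 in lymphomas against 6.55 to 7.13 in controls. Of its 6 genes, Sox13 (1.91) and Blk (1.34), which is also in the B-cell list, were higher in lymphomas than in controls and 0 were lower. The median difference of that list was 0.855 in lymphomas against controls. The part of these cells in the tumor-free rise of the 9 genes was not tested.

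Within the tumor-free group the macrophage mean exceeded controls by 3.46, 2.79, 2.29 and 1.5 in mice 1 to 4, and the B-cell mean by 4.43, 3.34, 3.09 and 2.58. This order is the reverse of that of Uaca, Fbp1, Wdr25 and Spsb4, which were lowest in mouse 1. Pdgfrb, like both marker means, was highest in mouse 1, but it was lowest in mouse 2. Sdc1 and Adam19, like both marker means, were lowest in mouse 4, and they were highest in mouse 2. Sertad4 was lowest in mouse 1 and highest in mouse 3, and Afdn was lowest in mouse 2 and highest in mouse 4. With 4 mice no relation was tested. Of 14 genes of thymocyte identity, 9 fell in tumor-free thymi against controls, among them Cd8b1 (-2.42) and Rag1 (-2.11), and 1 rose, Il7r (1.93). In lymphomas against controls 7 fell and 0 rose.

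**Figure D5:**
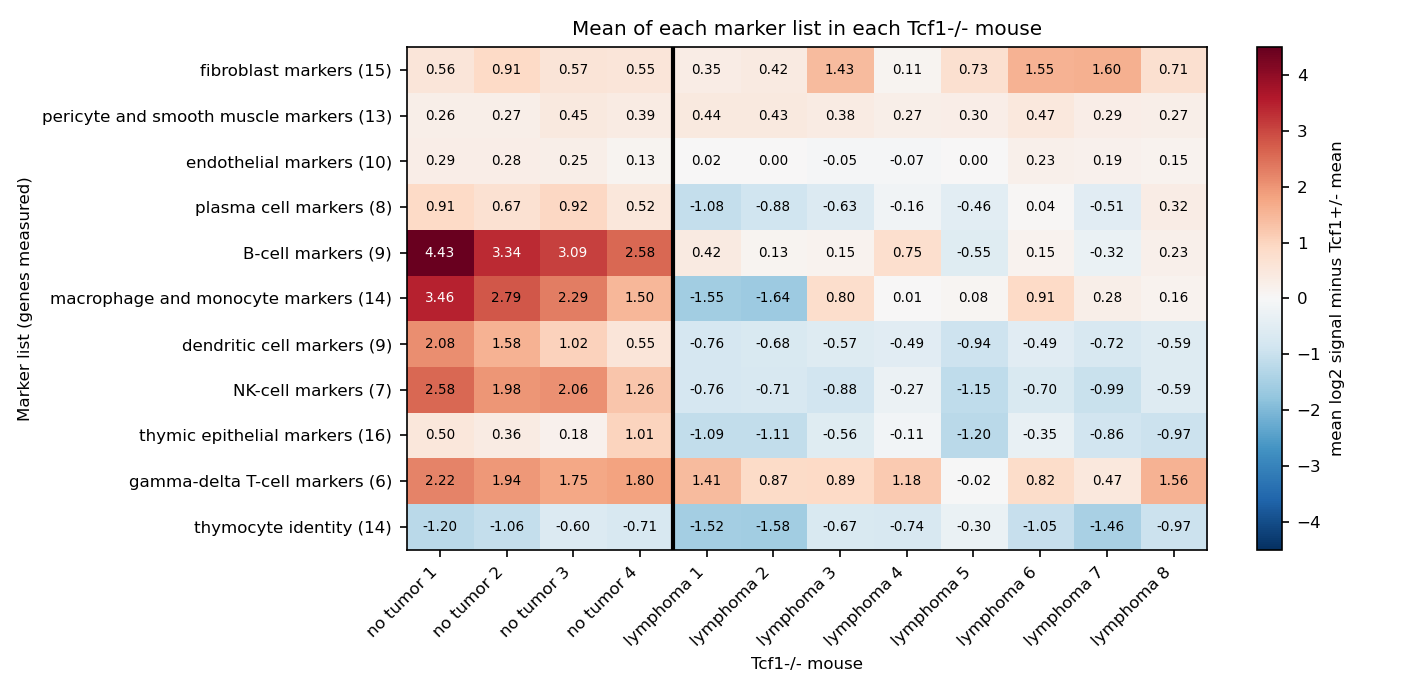
Mean log2 signal of each marker list (vertical axis, number of genes measured in brackets) in each Tcf1-/- mouse (horizontal axis), minus the control mean, as colour and number. B-cell and macrophage lists are high in the 4 tumor-free thymi, by 2.58 to 4.43 and 1.5 to 3.46, and near or below controls in most lymphomas.

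The partners and relatives of the 9 genes were read by list, each beside the median difference of all tested genes, -0.01 in tumor-free thymi against controls, 0.10 in lymphomas against tumor-free thymi and 0.06 in lymphomas against controls. Of the PDGF ligands and receptors other than Pdgfrb, 3 were tested, and Pdgfb (0.99) and Pdgfc (0.94) rose in tumor-free thymi against controls, with 0 of 3 called in the other comparisons and medians of 0.94, -0.13 and 0.44 in the order just given. The related class III receptors Csf1r (2.84), Kit (2.60) and Flt3 (1.43), the receptors for colony stimulating factor, stem cell factor and Flt3 ligand, rose in tumor-free thymi. All 3 fell in lymphomas against tumor-free thymi (-3.04, -2.55 and -1.52), where the list median was -2.55. In lymphomas over controls 0 of 3 were called, where Pdgfrb was 55.7-fold higher.

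Of 5 syndecans and glypicans tested beside Sdc1, Sdc3 (2.23) and Sdc4 (1.58) rose in tumor-free thymi against controls, and the same genes fell in lymphomas against tumor-free thymi (-2.23 and -2.06). The list medians were near 0, at -0.04 and 0.02. Of 18 genes of heparan sulfate synthesis and editing, 2 rose (Hpse, heparanase, 2.139, and Sulf1, 0.72) and 1 fell (Hs2st1, -1.02) in tumor-free thymi. The heparan sulfate list had 0 higher and 1 lower in lymphomas against tumor-free thymi, Hpse (-1.64). In lymphomas against controls 1 rose (Ext1, 0.80) and 1 fell (Sulf2, -0.99). The heparan sulfate medians were 0.22, 0.12 and 0.18 in the 3 comparisons.

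Of 8 other ADAM proteases, Adam8 (3.26), Adam9 (2.15) and Adamdec1 (2.13) rose and Adam12 (-2.24) fell in tumor-free thymi against controls. Against tumor-free thymi, lymphomas were lower in Adam8 (-3.18) and Adamdec1 (-4.00). Adam12 was the 1 family member called in lymphomas against controls (-2.41), in the opposite direction to Adam19. The medians of the ADAM list were 0.28, -0.60 and -0.12.

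Of 14 nectins and junction partners of afadin, Cadm1 (2.04), Tjp1 (1.09) and Ctnnd1 (0.87) rose and Pvr (-1.75) fell in tumor-free thymi against controls. Nectin1 and Nectin3, which bind afadin directly, were tested and not called in any of the comparisons. In lymphomas against tumor-free thymi 4 fell, among them Cadm1 (-2.02), and 0 rose. The list medians were -0.01, 0.06 and -0.01. Of 6 apoptosome genes, Apaf1 and Casp9 among them, 0 were called in any comparison by limma, beside the rise of Uaca, and their medians were 0.08, -0.03 and 0.04.

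Of 7 SPSB and SERTAD relatives, Sertad3 (-0.97), Spsb3 (-0.93) and Cdca4 (-0.77) fell and 0 rose in tumor-free thymi against controls. In lymphomas against controls 4 fell, these and Sertad2 (-1.11). The medians of this list were -0.51, -0.04 and -0.62.

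Of 14 genes of gluconeogenesis and fructose bisphosphate turnover, G6pc3 (0.67), Aldoc (0.77) and Pfkfb4 (0.83) rose and Pfkm (-0.91) fell in tumor-free thymi against controls. In lymphomas Pfkm, a phosphofructokinase that acts opposite to Fbp1, was 1.33 higher and Pck2 1.49 lower (-1.49) than in tumor-free thymi. In lymphomas against controls 0 of 14 were called, and the muscle isoenzyme Fbp2, which neighbours Fbp1, was not called in any comparison. The medians were 0.29, -0.14 and 0.15.

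The 3 nearest genes on each side of the 9 on the chromosome (GRCm38.p6 order) were read as well, 54 in all, of which 39 were tested. In tumor-free thymi over controls 6 of 39 rose, among them Csf1r (2.84) beside Pdgfrb, Rhob (2.76) near Sdc1 and Zbtb38 (0.79) near Spsb4, and 1 fell, Ptch1 (-0.85) near Fbp1. Over all tested genes 10.1% were called higher and 4.7% lower in that comparison. In lymphomas against tumor-free thymi 5 of 39 rose and 3 fell, beside 6.34% and 8.35% of all tested genes. In lymphomas against controls 8 of 39 rose and 0 fell, beside 8.49% and 4.21% of all tested genes. Those that rose most were Syt14 (2.05) near Sertad4, Pxylp1 (1.78) and Zbtb38 (1.29) near Spsb4 and Wdr35 (1.5) near Sdc1. Dlk1 and Meg3, imprinted genes next to Wdr25, were not called in any comparison.

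The genes whose signals ran most like the 9 over the 17 arrays were named by Pearson correlation, which follows the group differences the 9 were selected for and is a description. Pkp4, a junction plaque protein, was most like Pdgfrb (r = 0.944, and 0.856 over the 8 lymphomas), and Mpzl2 was most like Afdn (r = 0.953, and 0.945 over lymphomas). Hdgfl3 was most like Wdr25 (r = 0.973) and also among the 3 most alike for Spsb4 and Fbp1. Smyd2, a lysine methyltransferase, was most like Uaca (r = 0.96) and among the 3 for Wdr25. Ptpn14 was most like Sertad4 (r = 0.96), Prag1 most like Adam19 (r = 0.944) and Agfg1 most like Fbp1 (r = 0.935). Pdgfrb was the gene most like Sdc1 (r = 0.933, and 0.701 over the 8 lymphomas), and Wdr25 the gene most like Spsb4 (r = 0.961, and 0.585 over lymphomas). The others among the 3 most alike were Afdn and Mpzl2 for Pdgfrb, Adam19 and Nsmf for Sdc1, Amotl1 and Wdr25 for Uaca, and Epas1 and Rapgef2 for Afdn. They were Gfra1 and Wdr25 for Sertad4, Rps2 for Fbp1, Spsb4 for Wdr25, Arhgef10l for Spsb4, and Sdc1 and Prkar2a for Adam19. All points share the RMA scale and the same 17 thymi.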

How the data were processed

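The authors hybridized thymus RNA of each mouse to an Affymetrix mouse genome array and deposited log2 signals per probe set after RMA, as the labels name it. Whether all 17 arrays were normalized together is not given in the sources used here. RMA evens out distributions between arrays, which can hide a shift of most genes together, though the deposited arrays differ in their medians (5.23 to 5.47). Of 45101 probe sets, 34958 carry a single symbol (34754 matched RefSeq by gene ID), 932 several, 9147 none and 64 are controls. The probe set with the highest mean stood for each gene. Genes were tested where at least 4 arrays put them over their own 40th percentile. Each pair of groups was fitted alone with limma 3.58.1 in R 4.3.3 and Benjamini-Hochberg adjustment at 0.05. The script was tested on simulated data.

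Groups were taken from titles and strains, which number separate mice, and the number of mice limits the precision. The genes and lists were chosen with earlier results of these data known. All 9 genes are named, and of each list up to 4 called genes with the largest difference, of the chromosomal neighbours up to 4 called per comparison, and the 3 genes of highest correlation. Pdgfra, Rgs5, Il7r, Axin2 and uncalled list genes or neighbours were named after their values were seen. No probe set of the targeted gene is reported here, so it did not check the genotypes. Mouse numbers shared between groups were checked for pairing (correlations of same-numbered arrays after subtraction of group means -0.271 to 0.109 for tumor-free with control and -0.182 to 0.088 for lymphoma with tumor-free), and the mice were not treated as pairs. Alternatives were a joint fit of 17 arrays, dropping single mice, blocking on the mouse number, other filters, probe set rules, normalizations and variance models, the exact Mann-Whitney U test, an added fold threshold, leaving out or blocking the 4 arrays that stood apart, and Y-linked signal as a covariate.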

Additional observations from a re-analysis of the deposited data

Results flagged for a closer look

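In 27 groups of 4 to 8 mice, 1 per gene and group, 1 sample stood far from the rest by Dixon's criterion at the 95% level. This was Adam19 in tumor-free mouse 4, at 9.0 on the log2 scale, against 9.90 to 9.97 in the other 3 tumor-free thymi. Chance marks about 1 group in 20.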

How the results depend on the processing

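The tumor-free rise of 8 genes over controls was a count of 8 or 9 under 13 of 14 alternatives. In the joint fit of 17 arrays the 8 held Spsb4 (limma adjusted p = 0.0273) and not Uaca (limma adjusted p = 0.0675). Leaving out each mouse gave 8 to 9, with 9 without tumor-free mouse 1, when Spsb4 passed. The exact Mann-Whitney U test called 0 of the 9 genes and 0 genes in all (adjusted p = 0.0911 for the 8 genes), which all had the smallest p that 4 against 5 mice allow, and 2977 genes had an unadjusted p under 0.05 by that test. The count of 3 genes called in lymphomas over tumor-free thymi was less stable. It was 0 with the replicate block (mouse number as a block, which keeps only mice with a partner of the same number), 0 by the Mann-Whitney test and 0 when Y-linked signal was a covariate, which rests on lymphomas 4 and 6 alone. Leaving out each mouse gave 0 to 5, with 0 without tumor-free mouse 2, 1 without tumor-free mouse 1 and 5 without lymphoma 4. The replicate block called 8 of the 9 genes in tumor-free thymi over controls. Over all genes it called 1257 and 584 genes in place of 2037 and 2020, the array set as a block 3418 in place of 2037, and Y-linked signal 387 in place of 2020. A threshold of 1 on the absolute difference left 1327 and 1220, and lymphomas against tumor-free thymi had 1014 calls without tumor-free mouse 1 and 1271 without tumor-free mouse 2. Without the 4 arrays that stood apart, 46.4% of the calls in tumor-free thymi against controls were higher in place of 68.2%. The cause was not tested.

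Of the single genes, 2 changed direction in lymphomas against tumor-free thymi, both far from the threshold. Fbp1 was -1.06 with Y-linked signal as a covariate, and -0.29 to 0.99 on leaving out each mouse. Adam19 was -0.15 with the replicate block, -0.37 for the mean of its probe sets, -0.36 with Y-linked signal and -0.14 to 0.40 on leaving out each mouse. The median lymphoma minus control difference was 4.77 to 5.24 on leaving out each mouse.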
